A study of Mus musculus with 31 samples.

Results

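Mammary glands with a single functional Stat5a allele (the A genotype) were compared with glands that kept a single Stat5b allele (the B genotype) at day 6 of pregnancy. Genes were taken when their deposited FPKM was 1 or more in the A or the B column, which gave 13312 of the 22609 genes in the table. The other 9297 genes were under 1 FPKM in both columns, and 3381 of them were listed at 0 in both. FPKM, fragments is a count of sequenced fragments divided by transcript length and library size, so levels of different genes may be set side by side.

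Poly(A) RNA of mammary tissue, taken without lymph nodes, was sequenced in mice of a mixed 129SV, FVB/N and C57BL/6 strain. A mice were Stat5abnull/Stat5b-, with both genes deleted on a chromosome and Stat5b disrupted on the other. B mice were Stat5abnull/Stat5a-, so both genotypes share the Stat5ab null allele. The alleles of both were inherited through matings of null mice and are not restricted to the epithelium. The other columns of the table served as background: wild type (AABB), Stat5ab+/null (AB, 1 copy of each gene), Stat5a-/- (BB, 2 copies of Stat5b) and Stat5abfl/fl;MMTV-Cre (Null). In Null mice Cre recombinase is driven by the MMTV promoter, and the deficiency is described for mammary epithelial cells. Per the design text the name AABB also covers Stat5abfl/fl mice without Cre. The labels list 3 samples for each genotype at day 6. The same 6 genotypes were sequenced within 12 hours of delivery, with 2 samples of A and 3 of B.

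The table holds 1 column per genotype, the authors' mean, so no SD, n or p-value can be given for any value below, and a mean may rest on 1 of its 3 samples. No difference has a replicate check. Sequencing depth is unknown, since FPKM sums (454076 in B and 459075 in A) do not give read numbers. The tags of the A samples end in R and those of the B samples in L, with the same numbers in both genotypes at day 6, and the labels do not say what the tags mean. Whether samples of A and B with the same number are paired or share an animal is therefore unknown. Levels are scaled FPKM, that is FPKM divided by a factor per column. Differences are log2 ratios of scaled FPKM + 1, A to B, which understate differences of weakly expressed genes. A gene is called higher or lower when the ratio on this scale is at least 2-fold.

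STAT5A and STAT5B are closely related transcription factors encoded by neighbouring genes. Prolactin binding to its receptor activates the kinase JAK2, which phosphorylates STAT5. The phosphorylated protein pairs up, enters the nucleus and binds DNA at a short palindrome. In mammary epithelium STAT5 is known for driving the formation of alveoli in pregnancy and the expression of milk protein genes. It also acts downstream of interleukin receptors in lymphocytes and of growth hormone in many tissues. The comparison asks whether the isoforms differ in effect when each is present as a single copy.

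The transcripts of the targeted genes were present in both columns. Stat5a stood at 15.9 in A, 12.5 in B, 3.67 in BB, 13.4 in AB, 33.6 in wild type and 13.6 in Null. Stat5b stood at 10.6 in A, 12.3 in B, 14.9 in BB, 11.7 in AB, 16.7 in wild type and 9.04 in Null. The log2 ratios of A to B were 0.32 for Stat5a and −0.20 for Stat5b, each in the direction of the retained allele and within 2-fold. The library labelled B thus still held Stat5a transcript, and the library labelled A Stat5b transcript. Stat5a in B (12.5) was above BB (3.67), although neither genotype is described as keeping a functional Stat5a allele. The origin of the Stat5a transcript in B was not tested. Gene-level FPKM does not separate a functional from a disrupted allele, and every direction below refers to the columns labelled A and B. Mammary epithelium was present in both columns, with the luminal keratin genes Krt8 at 228 in A and 258 in B and Krt18 at 297 and 310, and the basal keratin gene Krt5 at 101 and 71.2.

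Across all genes the A and B columns lay close together. Of the 13312 genes compared, 98.5% lay within 1.5-fold. The 5th and 95th percentiles of the log2 ratio were −0.26 and 0.15, with a median of 0.00. The spread narrowed with level, from −0.38 and 0.21 below a mean level of 5 (3808 genes) to −0.14 and 0.14 at 100 or more (594 genes). In A, 19 genes were higher (0.143% of those compared) and 40 were lower (0.3%). At least 4-fold, 3 were higher (0.0225%) and 9 lower (0.0676%). A mean level under 5 was found for 8 of the higher and 21 of the lower genes, and none of the 59 had a mean level of 100 or more. With a pseudocount of 0.1 in place of 1, which gives more weight to weak genes, 44 were higher and 91 lower. With a floor of 5 FPKM in either column, 14 were higher and 25 lower.

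By the same rule, 463 of 12898 genes (3.59%) differed between AB and BB, with 2.54% of the genes higher in AB and 1.05% lower. Between BB and B it was 884 of 13341 (6.63%), with 1.9% higher in BB and 4.72% lower. The share between A and B was 0.443%. Mean columns allow no test of these differences in share. The listed skeletal muscle genes summed to 8356 in AB, 161 in BB, 99.7 in A and 51.9 in B. How many of the 463 genes are muscle genes was not counted. Neither muscle content nor a pairing of A and B samples was tested as a source of these shares.

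**Figure D1:**
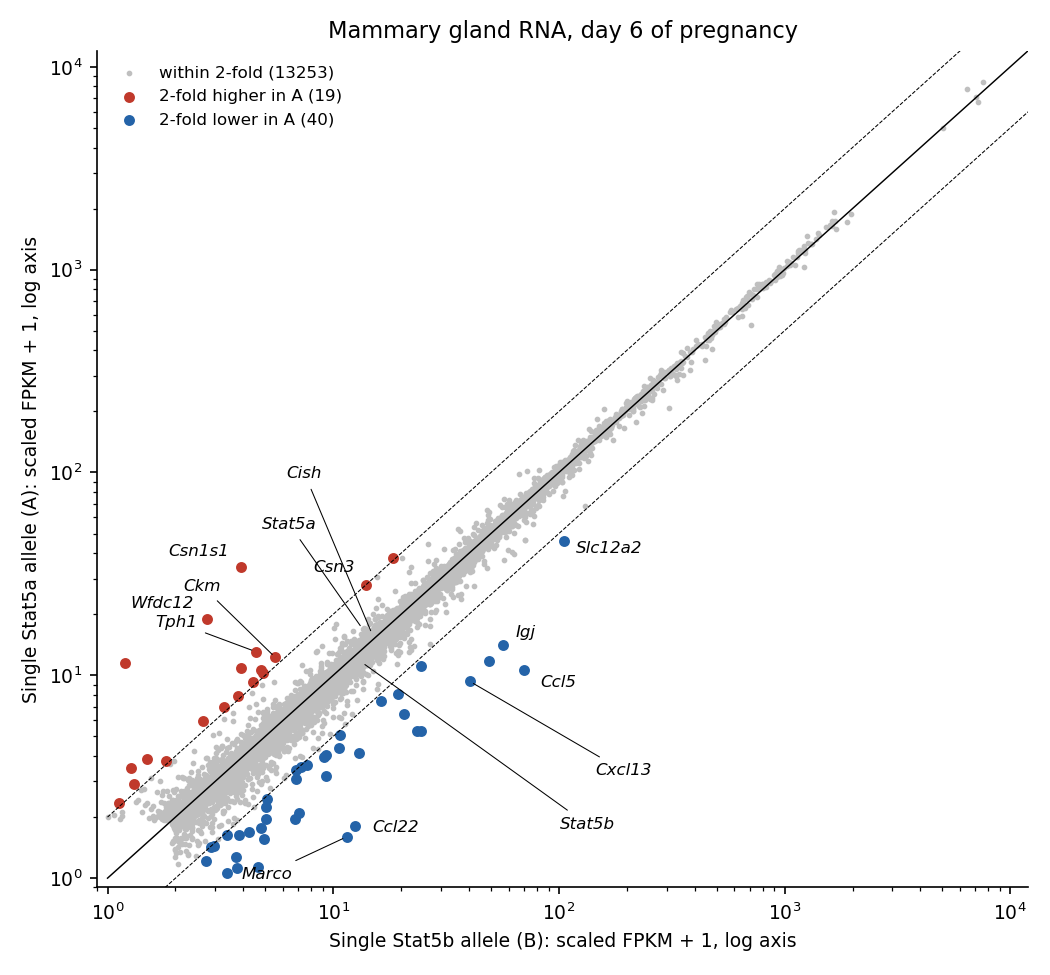
Scaled FPKM + 1 of each of 13312 genes in the B column (x, log axis) and the A column (y, log axis) at day 6 of pregnancy, each value a mean of samples; the solid line marks equality and the dashed lines a 2-fold difference. The 19 genes higher in A (red) and 40 lower (blue) lie at low and middle levels, while Stat5a, Stat5b and Cish lie inside the 2-fold band.

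After the predicted gene Gm5779 (log2 ratio 3.27), the genes highest in A relative to B were Csn1s1, Wfdc12, Tph1 and Hepacam2. Csn1s1, which encodes alpha-S1-casein, a main milk protein, stood at 33.3 in A and 2.92 in B. The other columns held Csn1s1 at 39.8 in BB, 7.84 in AB, 1148 in wild type and 2.62 in Null. A was therefore near BB, B near Null, and all of them far under wild type. In bulk tissue, fewer cells of a type and less RNA per cell cannot be told apart, for this gene or any below. The log2 ratio of A to B was 3.13, the highest of any gene with a characterised name. Csn3, kappa-casein, which stabilises the casein micelle, was 26.9 in A and 12.9 in B, against 27.4 in BB, 40.2 in AB, 211 in wild type and 58.5 in Null (log2 ratio 1.01, and 1.00 with scaling to column sums). Null was above both A and B for Csn3, so the order of the columns differed from that of Csn1s1.

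Of 13 listed milk protein genes, 8 reached 1 FPKM in A or B. Of these 2 were higher in A, against 0.143% of all genes, and none was lower. The median log2 ratio was 0.35, against a median of 0.00 over all genes. The 6 within 2-fold ran from −0.60 for Glycam1, a secreted mucin-like protein (45.6 in A, 69.8 in B), to 0.47 for Pthlh. Ltf, the antimicrobial lactoferrin, was 6.23 in A and 5.11 in B, far under its 308 in Null. Spp1 (osteopontin) was 7.58 and 6.33. The membrane mucins Muc1, at 13.3 and 10.3, and Muc15, at 72.8 and 56.2, were also within 2-fold.

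The 5 milk protein genes left out were below 1 FPKM in both columns at a stage when wild type already expressed them. Csn2, beta-casein, was 0.707 in A and 0.102 in B against 2959 in wild type. Csn1s2a, alpha-S2-casein, was 0.193 and 0.102 against 1197. Lalba, a subunit of lactose synthase, was 0.159 and 0.0698 against 10.5, and Wap, whey acidic protein, 0.0509 and 0.0139 against 14.0. Csn1s2b, another alpha-S2-casein gene, was 0.0612 and 0.0676. Null was above A and B for each, at 4.96 for Csn2, 6.04 for Csn1s2a, 0.917 for Lalba, 4.05 for Wap and 0.212 for Csn1s2b. A and B held nearly none of these transcripts, so no ratio between them is given.

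Among whey acidic and antiprotease genes, the extremes went opposite ways. Wfdc12, an antiprotease of the whey acidic protein family, was 18.1 in A and 1.75 in B (log2 ratio 2.79). The other columns held Wfdc12 at 25.3 in BB, 38.1 in AB, 133 in wild type and 3.05 in Null. B was the lowest of all 6 columns. Spink3, a trypsin inhibitor, was 4.31 in A and 23.4 in B (log2 ratio −2.20). It stood at 82.5 in Null, 4.12 in AB, 1.73 in wild type and 0.366 in BB, so B lay between Null and the rest. Of the 8 genes of this list that were compared 1 was higher and 1 lower, and the median was −0.16. Wfdc2 (38.6 in A, 62.3 in B) and Slpi (13.1 and 18.6) were lower in value and within 2-fold, while Expi (302 and 355) was close and the serine protease inhibitors Spint1 and Spint2 were nearly equal.

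Promoter sequences were searched for the STAT5 palindrome, and those of 3 genes are printed here. The motif searched was TTCNNNGAA, a palindrome that reads the same on both strands, in windows from 250 bases before to 50 after the RefSeq start (build GRCm38.p6). Csn1s1 is shown as the milk gene with the largest ratio, Wfdc12 as the next, and Cish, a classic STAT5 target and feedback inhibitor, as a gene that was equal in A and B. Capitals mark each match.
Csn1s1, chr5:87665958-87666257, plus strand: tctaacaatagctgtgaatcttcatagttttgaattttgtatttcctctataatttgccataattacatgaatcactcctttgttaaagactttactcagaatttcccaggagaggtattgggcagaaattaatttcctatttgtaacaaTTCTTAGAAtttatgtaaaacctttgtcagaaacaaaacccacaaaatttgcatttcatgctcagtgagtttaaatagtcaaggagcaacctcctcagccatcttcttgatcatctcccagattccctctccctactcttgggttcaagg
Wfdc12, chr2:164190509-164190808, minus strand: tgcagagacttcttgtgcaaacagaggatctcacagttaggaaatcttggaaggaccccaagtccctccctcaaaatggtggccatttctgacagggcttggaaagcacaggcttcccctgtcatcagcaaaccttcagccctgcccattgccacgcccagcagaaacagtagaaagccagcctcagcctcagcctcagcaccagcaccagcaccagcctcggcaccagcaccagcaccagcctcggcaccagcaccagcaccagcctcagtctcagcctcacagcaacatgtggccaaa
Cish, chr9:107296409-107296708, plus strand: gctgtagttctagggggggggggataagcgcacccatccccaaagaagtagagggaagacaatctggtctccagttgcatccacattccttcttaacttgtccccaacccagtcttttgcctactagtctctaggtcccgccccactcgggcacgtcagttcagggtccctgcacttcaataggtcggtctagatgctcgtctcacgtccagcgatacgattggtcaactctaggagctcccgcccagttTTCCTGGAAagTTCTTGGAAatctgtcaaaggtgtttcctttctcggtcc

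The Csn1s1 window held 1 match, TTCTTAGAA, which begins 100 bases before the start. The Cish window held 2, TTCCTGGAA and TTCTTGGAA, side by side at the start, and the Wfdc12 window held none. Csn2 and Csn1s2a held 1 each, and Wap, Tph1, Hepacam2, Aqp5, Ccl22 and Cxcl13 held none. Of all 32851 promoter windows, 8.3% held the motif. Promoters were found for 14 of the 19 genes higher in A, of which 1 (Csn1s1, 7.14%) held it. They were found for 26 of the 40 genes lower in A, of which 3 held it (Nkg7, Sbp and Serpina3g, 11.5%). Among the genes compared that had a promoter, the share was 8.4%. A match is a description of letters and not a binding site, and these windows leave out distal enhancers.

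Signalling genes around STAT5 were close in A and B. Cish was 14.9 in A and 13.9 in B, against 10.3 in BB, 19.2 in AB, 52.7 in wild type and 19.5 in Null (log2 ratio 0.09). Socs2, another feedback inhibitor, was 19.7 and 16.7, and Socs3, which also restrains STAT3, was 4.86 and 6.78. None of the 14 feedback inhibitors was past 2-fold (median −0.02). Nor was any of the 17 receptor and kinase genes (median −0.18), with the prolactin receptor gene Prlr at 31.8 in A and 40.3 in B and Jak2 at 17.9 and 20.4. The lowest of that list was Il2rb, a subunit of the interleukin-2 receptor of lymphocytes, at 2.22 and 5.15 (log2 ratio −0.94, or −1.18 with a pseudocount of 0.1). Of the 7 STAT genes none was past 2-fold. The farthest was Stat4, the STAT of interleukin-12 signalling in lymphocytes, at 1.15 in A and 2.27 in B.

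Among 19 alveolar regulators linked to STAT5, none was past 2-fold and the median was 0.10. Elf5, a transcription factor of the alveolar lineage, was 40.8 in A and 29.9 in B (113 in wild type, 32.9 in Null). Tnfsf11, which encodes RANKL, the signal from hormone-sensing cells to alveolar progenitors, was 52.9 and 41.0 (47.5 in wild type, 7.54 in Null). Rspo1, a Wnt agonist, was 22.8 and 14.8 (105 in wild type, 3.49 in Null). Gjb2, a gap junction gene, was 6.54 and 4.55. Ehf, an epithelial ETS factor, was 55.7 and 42.1. Each of these 5 was higher in value in A, by log2 ratios of 0.36 to 0.59. Of the 19, 11 were above 0 and 8 below, while over all genes 48.2% were above 0. Gata3, a luminal fate factor, was in the other direction at 15.8 in A and 20.9 in B.

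Tph1 and Hepacam2 were the other epithelial genes with a large ratio. Tph1, the rate-limiting enzyme of serotonin synthesis outside the brain, was 12.1 in A and 3.53 in B (log2 ratio 1.53). It stood at 9.28 in BB, 14.8 in AB, 20.7 in wild type and 0.180 in Null. Hepacam2, a membrane protein of the immunoglobulin superfamily, was 9.90 in A and 2.89 in B (log2 ratio 1.49), with 3.51 in BB, 8.33 in AB, 15.2 in wild type and 0.811 in Null. In both genes wild type was highest and Null lowest of the 6 columns, with B the next lowest. Atp7b, a copper transporter, showed the same order at lower levels, 2.86 in A, 0.499 in B, 3.60 in wild type and 0.0649 in Null (log2 ratio 1.37). The list of serotonin and calcium transport genes held Tph1 and, by the way it was drawn up, Hepacam2, but not Atp7b. Its other 7 genes compared were within 2-fold, among them the serotonin transporter gene Slc6a4 at 3.87 and 4.19.

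**Figure D2:**
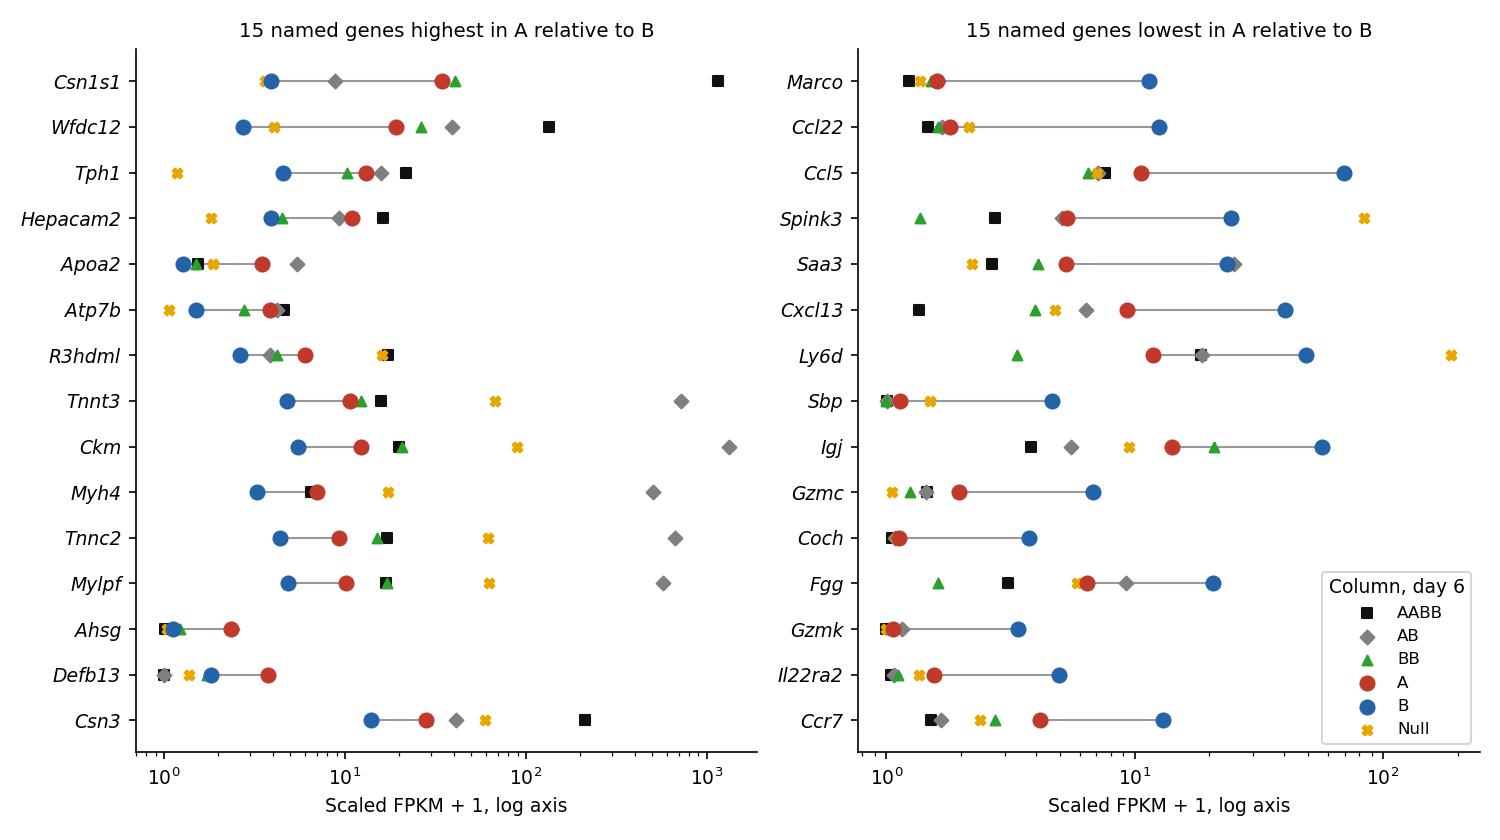
Scaled FPKM + 1 (log axis) in the 6 genotype columns at day 6 for the 15 genes with characterised names that were highest (left) and lowest (right) in A relative to B; a grey line joins A (red) and B (blue), and markers can overlap. Wild type (black squares) exceeds A and B for Csn1s1, Wfdc12, Tph1 and Hepacam2, AB (grey diamonds) stands far right for the muscle genes, and B stands alone on the right for Marco, Ccl22, Ccl5 and Gzmk.

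Markers of other epithelial states were close. Of 13 hormone-sensing luminal genes 1 (Tph1) was past 2-fold. The estrogen-linked factor gene Foxa1 was 11.6 in A and 18.4 in B, Cited1 51.4 and 34.8, and the EGF receptor ligand gene Areg 80.4 and 105. None of 18 luminal genes (median −0.06) and none of 14 basal and myoepithelial genes (median 0.07) was past 2-fold. The luminal list was farthest from equality at Cldn4, a tight junction claudin (24.2 in A, 35.9 in B), and at the keratin gene Krt7 (54.7 and 75.9). Among basal genes 12 of 14 were higher in value in A, led by Krt5 at a log2 ratio of 0.50, while over all genes 48.2% were above 0.

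Of 9 ductal ion and water transport genes compared, 3 were lower in A (against 0.3% of all genes) and none was higher. The median was −0.13, and 4 of the 9 were above 0. The 3 were the transporter genes Slc12a2 and Aqp5 and Ly6d, which is not a transporter. Slc12a2, a sodium, potassium and chloride cotransporter of secretory epithelium, was 45.1 in A and 104 in B (log2 ratio −1.19). It stood at 210 in Null, 46.3 in BB, 22 in AB and 18.3 in wild type. Aqp5, a water channel of ductal and glandular epithelium, was 10.1 in A and 23.4 in B (log2 ratio −1.14), with 147 in Null, 22.9 in BB, 12.7 in AB and 39.4 in wild type. Ly6d, a membrane-anchored epithelial and lymphoid surface protein, was 10.8 in A and 48 in B (log2 ratio −2.05), with 188 in Null, 2.35 in BB, 17.6 in AB and 17.6 in wild type. Null was the highest column for each of the 3 genes, and B the next for Slc12a2 and Ly6d. Clca2, a chloride channel regulator, was 40.4 in A and 32.9 in B, and Slc5a5, the iodide transporter, 2.54 and 2.89. Fam25c and Ache, outside the list, had the same order with Null highest: Fam25c was 6.48 in A, 15.3 in B and 47.2 in Null, and Ache (acetylcholinesterase) 0.442 in A and 1.96 in B.

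The wild-type and Null columns do not enter the A to B ratio and give a separate view of these genes. Of the 19 genes higher in A, 7 were at least 2-fold higher in wild type than in Null, against 1.99% of all genes compared (4.15% in either direction). They were Csn1s1, Csn3, Wfdc12, Tph1, Hepacam2, Atp7b and the predicted gene Gm5779. A further 6 of the 19 were 2-fold higher in Null, 5 of them skeletal muscle genes. Of the 40 genes lower in A, 11 were 2-fold higher in Null than in wild type, against 2.16% of all genes, and none was higher in wild type. These 11 included Spink3, Ly6d, Slc12a2, Aqp5, Fam25c, Ache, Upk2, Cxcl13, Igj and Ido1. Across all 13312 genes the A to B and wild-type to Null log2 ratios had a Pearson r of 0.20 and a Spearman rho of 0.11, over genes of the same 6-column table, which are not independent replicates. Null differs from A and B also in how the genes were lost.

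Of the 40 genes lower in A, 11 belonged to 7 lists of lymphocyte, dendritic cell, lymph node and chemokine genes. The 7 lists held 109 genes compared, which is 0.819% of all genes compared. Lower in A were 10.1% of these, against 0.3% of all genes. Of the 11, Ccl22, Cd3e, Cd8a and Gzmk reached 1 FPKM only in B, so the filter favoured such a call. Other immune cell genes among the 40, such as Gzmc, Ctsw, Ms4a4b, Il21r, Traf1 and Cd5l, were in none of the 7 lists. The lists were chosen with earlier results of these data known. Left out of the 7 were the MHC class II, macrophage, mast cell and interferon response lists, each with no gene past 2-fold. The neutrophil and acute phase list, with 1 of 12 lower in A, was also left out. B was the highest of the 6 columns for 28 of the 40, which were selected with B at least 2-fold above A. That choice favours B as the top column, and the share over all genes was not counted. Ccl5, a T cell and monocyte attractant made by activated lymphocytes, was 9.62 in A and 68.9 in B (log2 ratio −2.72). The other 4 columns held Ccl5 between 5.46 and 6.59, so B alone stood apart. Ccl22, a dendritic cell chemokine that attracts regulatory T cells, was 0.806 in A and 11.5 in B (log2 ratio −2.79), with at most 1.16 elsewhere. Cxcl13, the B cell attractant of lymphoid follicles, was 8.33 in A and 39.3 in B (log2 ratio −2.11), with 2.96 in BB, 5.37 in AB, 0.351 in wild type and 3.79 in Null. A was thus also the second highest column for Ccl5 and Cxcl13. Of 25 chemokines compared 3 were lower, none was higher, and the median was −0.27. Cxcl17, a mucosal chemokine, lay just under the threshold at 1.24 and 3.47 (log2 ratio −0.99). Cxcl10 (1.47 and 2.73) and Ccl2 (4.87 and 7.24) were within 2-fold.

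Of 15 chemokine receptors 1 was lower, Ccr7, which guides dendritic cells and naive lymphocytes to lymph nodes, at 3.16 in A and 12.0 in B (log2 ratio −1.64). It stood at 1.73 in BB, 0.662 in AB, 0.507 in wild type and 1.37 in Null. Cxcr3, of effector T cells, was 1.76 and 3.35, and Cxcr5, of follicular B cells, 4.83 and 8.12. The list's median was −0.18.

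All 17 T cell genes compared were lower in value in A, with a median of −0.59 (−1.02 with a pseudocount of 0.1), and 4 were past 2-fold. Some, Cd3e, Cd8a and Cd3d among them, reached 1 FPKM only in B, so the filter itself favoured lower values in A. Over all 13312 genes compared, 6896 were lower in value and 0.3% were lower by at least 2-fold. Cd3e, a chain of the T cell receptor complex, was 0.640 in A and 2.82 in B, but 6.11 in Null and 3.09 in wild type. Cd3g, of the same complex, was 1.24 and 4.04. Cd8a, the cytotoxic co-receptor, was 0.641 and 2.39, and the receptor kinase gene Lck 2.40 and 5.87. Cd3d lay just under the threshold (log2 ratio −0.98), and Cd4, the helper co-receptor, was 3.04 and 4.74. These levels are low: over all 24 listed genes the sum was 109 in A and 148 in B, and 28.2 and 55.1 without Thy1, which fibroblasts also express. With Thy1 included, the sum was 165 in BB and 164 in AB, both above B, 76.6 in Null and 65.5 in wild type. None of the 24 was at 0 in A or B.

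Natural killer and cytotoxic genes were likewise lower in value in A for all 13 compared, with a median of −0.59. Of these 3 were past 2-fold, against 0.3% of all genes. Some, Gzmk, Klrk1 and Eomes among them, reached 1 FPKM only in B, which again favoured lower values in A. The list's median was −1.28 with a floor of 5 FPKM. Nkg7, a granule membrane protein, was 3.37 in A and 9.59 in B, and the granzyme gene Gzmk 0.0648 and 2.40. The granule protein genes Gzma (5.74 and 7.23) and Prf1 (0.970 and 1.62) were within 2-fold. The sum over the 15 listed genes was 31.3 in A and 110 in B, and 21.7 and 40.9 without Ccl5. It was between 10.8 and 16.5 in the other 4 columns. Granzyme genes have close relatives, so their split of reads is uncertain. Gzmc, outside the list, was 0.955 and 5.76, and Ctsw, a protease of cytotoxic lymphocytes, 2.09 and 5.81.

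Dendritic cell genes were lower in value in A for 19 of 20, with a median of −0.38. Past 2-fold were 2, Ccl22 and Ccr7, against 0.3% of all genes, and Ccl22 reached 1 FPKM only in B. Genes of mature dendritic cells came next, with Fscn1 (actin bundling) at 13.3 in A and 26.0 in B and Cd83 at 8.05 and 14.8. Fscn1 was above both in all 4 other columns. The defining marker Flt3 was 0.961 and 1.96. The 11 lymph node stroma and high endothelium genes compared were all lower in value in A (median −0.43), and 1, Cxcl13, was past 2-fold. This list shares Glycam1 with the milk protein list, and Cr2 and Fcer2a with the B and plasma cell list. Its counts are therefore not independent of theirs, and its member Lta reached 1 FPKM only in B. The lymph node chemokine genes Ccl19, Ccl21a, Ccl21b and Ccl21c of this list were at 0 in both columns. They were at 0 in the other columns too, and an exact 0 can mean that no level was estimated for closely related copies. The part of lymph node remnants or infiltrating lymphocytes in the values of these paragraphs was not tested.

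B and plasma cell genes stood high in both A and B relative to the other columns and differed less between them. Of 17 compared 1 was lower in A, Igj, the joining chain of secreted IgM and IgA, at 13.1 in A and 55.6 in B (log2 ratio −2.00). It was 19.8 in BB, 4.54 in AB, 2.84 in wild type and 8.45 in Null. Cd79a, part of the B cell receptor, was 53.5 and 61.0, against at most 5.95 elsewhere. Ms4a1 (CD20) was 21.9 and 25.9, and Cr2, the complement receptor of mature B cells, 5.21 and 9.65. The summed level of the list was 243 in A and 339 in B, or 230 and 283 without Igj, against 10.5 to 34.8 in the other columns. The median ratio was −0.26. Of 10 MHC class II genes none was past 2-fold (median −0.13), with Cd74, the invariant chain, at 593 and 649. The class II transactivator gene Ciita was 6.21 and 7.78.

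Single genes of macrophages and inflammation were also lower in A. Marco, a scavenger receptor of macrophages, had the lowest ratio of all genes, at 0.598 in A and 10.5 in B (log2 ratio −2.84), and was at most 0.617 in the 4 other columns. The 13 listed macrophage genes were within 2-fold (median −0.05), with C1qa at 227 and 236. Saa3, an acute phase protein gene with close relatives whose level is therefore uncertain, was 4.28 in A and 22.6 in B, and 24.2 in AB. Ido1, which degrades tryptophan, was 0.764 and 3.76. Il22ra2, a decoy receptor for interleukin-22, was 0.554 and 3.95. Epsti1 (7.13 and 18.4) and Serpina3g (4.07 and 9.72), which respond to interferon, were lower too. None of the 23 listed interferon response genes was past 2-fold, with a median of −0.11. Mast cell genes were nearly equal (median −0.08), with the protease gene Cpa3 at 85.0 and 89.1.

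**Figure D3:**
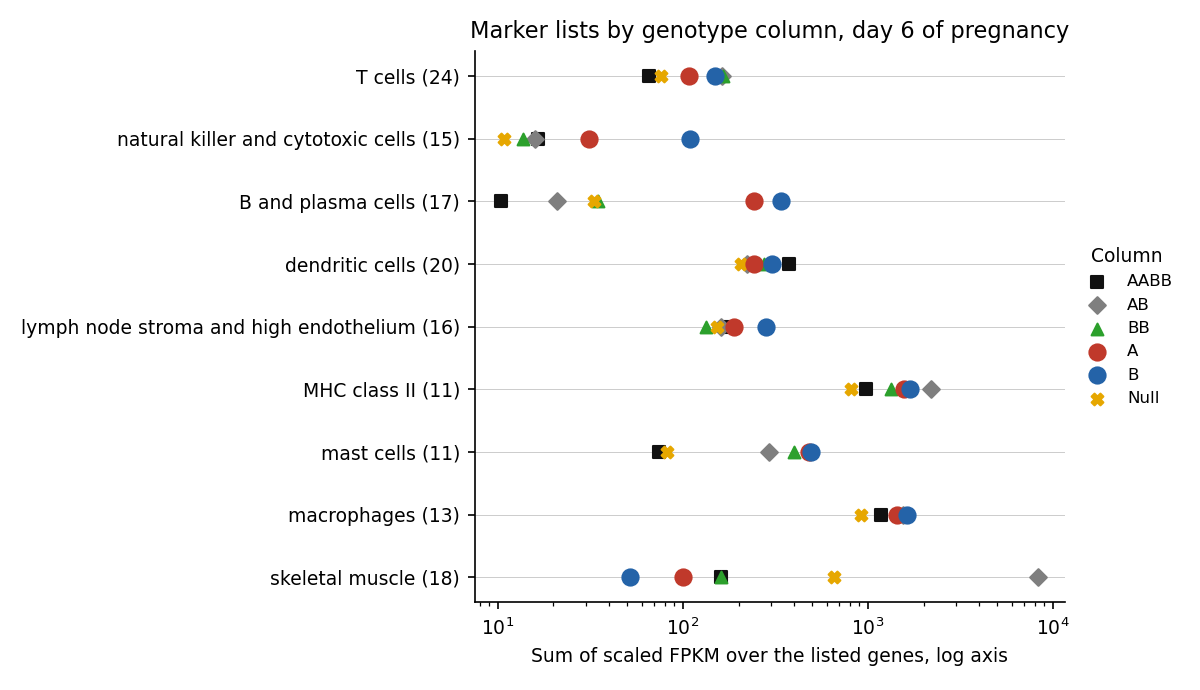
Sum of scaled FPKM (log axis) over the genes of 9 marker lists (number of genes in parentheses) in the 6 genotype columns at day 6. The A and B columns stand above the other 4 for B and plasma cells, A lies below B for natural killer and cytotoxic cells, and skeletal muscle spans 51.9 in B to 8356 in AB.

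Skeletal muscle genes made up 5 of the 19 genes higher in A. These 5 were among 16 muscle genes compared, while 0.143% of all genes compared were higher. Ckm, muscle creatine kinase, was 11.3 in A and 4.54 in B (log2 ratio 1.15), with 19.6 in BB, 1328 in AB, 18.8 in wild type and 87.9 in Null. The troponin genes Tnnt3 (9.61 and 3.77) and Tnnc2 (8.29 and 3.40), the myosin heavy chain gene Myh4 (6.02 and 2.27) and the myosin light chain gene Mylpf (9.21 and 3.87) were the others past 2-fold. Of the 16, 15 were higher in value in A, against 48.2% of all genes. The median was 0.76 (1.07 with a pseudocount of 0.1 or with a floor of 5 FPKM). The sum over the list was 99.7 in A and 51.9 in B, the 2 lowest of the 6 columns. Muscle lies beside the mammary fat pad, and the part of such tissue in these values was not tested.

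Many cell and pathway lists had no gene past 2-fold. Cell cycle genes had a median of 0.06 over 27, and the proliferation marker Mki67 was 7.74 in both A and B, against 3.16 in Null and 8.46 in wild type. Milk fat synthesis and secretion genes had a median of 0.03 over 26. The butyrophilin gene Btn1a1, of the milk fat globule membrane, was 4.69 in A and 3.20 in B, and the fatty acid synthase gene Fasn 1028 and 1217. Adipocyte (0.02), fibroblast and matrix (−0.08), endothelial (−0.04) and nerve and Schwann cell (0.12) genes were also close in the median. Brown adipocyte genes had a median of −0.03. Their farthest member was Ucp1, the uncoupling protein of thermogenic fat, at 3.36 in A, 7.57 in B and 309 in wild type, a log2 ratio of −0.98. The most abundant transcripts of both columns were of fat cells, with Fabp4 (8435 in A, 7584 in B), Scd1 (7756 and 6453), Cfd (7078 and 7022) and Car3 (6672 and 7161).

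**Figure D4:**
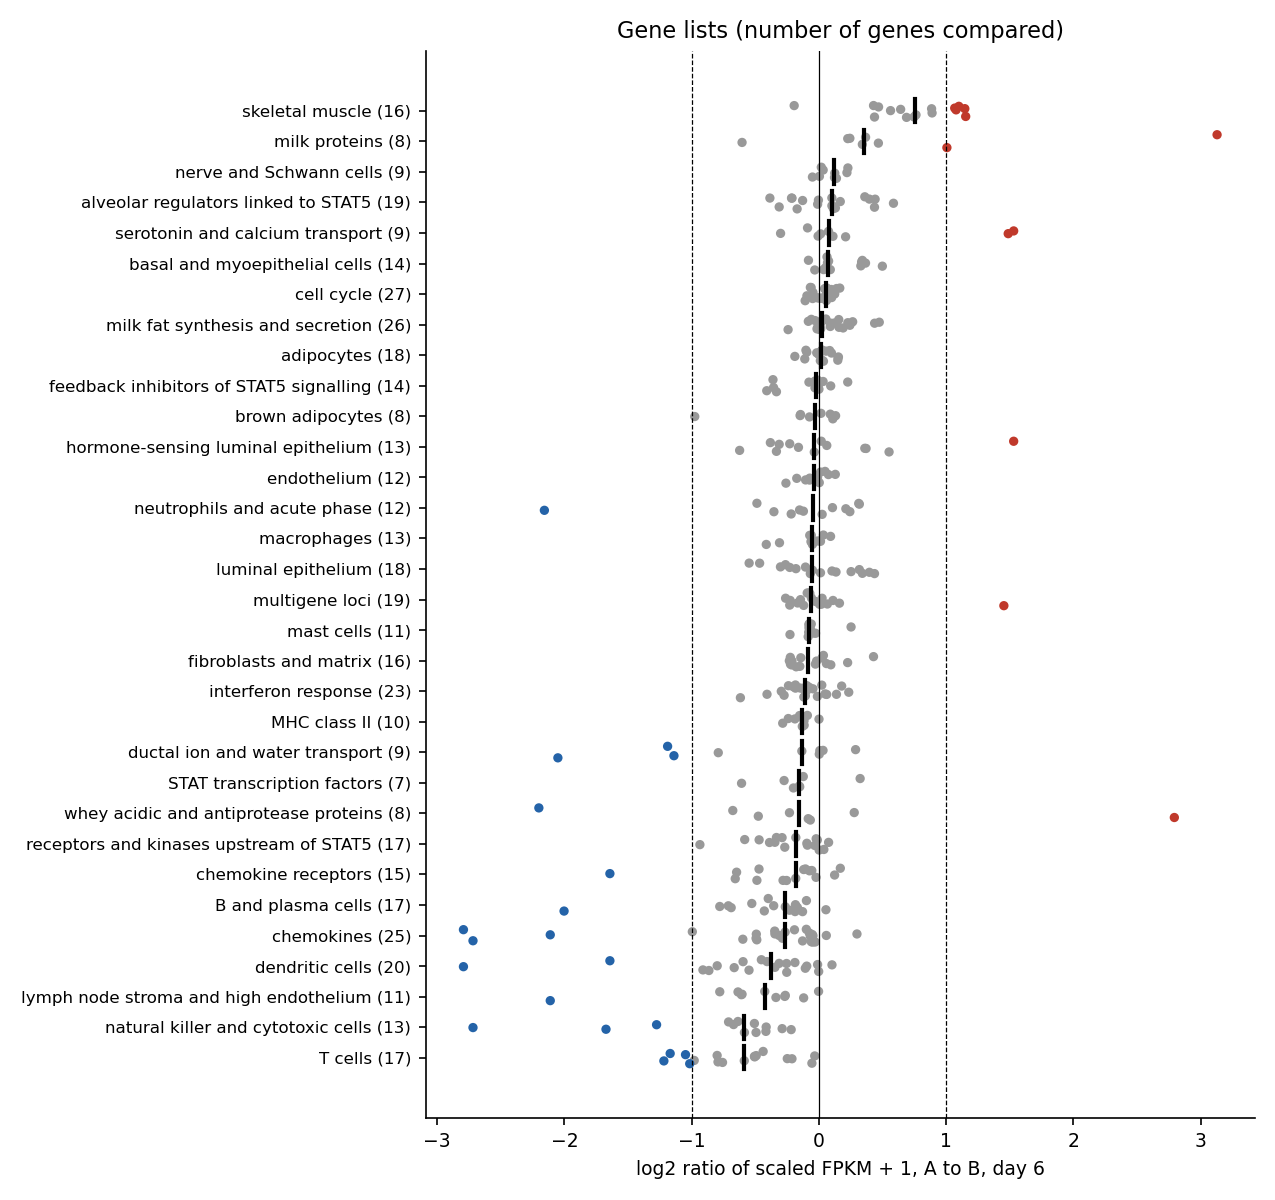
Log2 ratio of scaled FPKM + 1, A to B, at day 6 for each gene of 32 lists (points; number compared in parentheses) with the list's median (black bar); dashed lines mark 2-fold, with genes past it in red (higher in A) or blue (lower). Skeletal muscle and milk protein genes have the highest medians, 0.76 and 0.35, and T cell and cytotoxic cell genes the lowest, −0.59 and −0.59.

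The same contrast at parturition came from other samples and a separately scaled table, so only ratios within each table are set side by side. Among 12990 genes at parturition, A exceeded B at least 2-fold for 50 (0.385%) and B exceeded A for 49 (0.377%), 0.762% in all. Scaling to column sums gave 48 and 73, and a pseudocount of 0.1 gave 92 and 122. Of the 19 genes higher at day 6, 14 reached 1 FPKM in A or B at parturition. Their ratio kept its sign in 7 and reversed in 7, with a median of 0.02. Of the 40 lower ones, 25 could be compared, 14 with the same sign and 11 with the opposite, with a median of −0.15. Across 12659 genes compared at both stages, the ratios had a Pearson r of 0.13 and a Spearman rho of 0.15.

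In the same direction and past 2-fold at both stages were 9 genes, and 3 were past it in opposite directions. Csn1s1 was 2191 in A and 934 in B at parturition (log2 ratio 1.23, against 110787 in wild type), and Gm5779, a predicted gene, 17.5 and 4.88. Lower in A at both stages were Slc12a2 (31.6 and 64.8 at parturition), Igj (1.84 and 6.76), Fam25c (0.548 and 2.46), Upk2, a urothelial membrane protein gene (0.420 and 2.26), Prg4 (lubricin, 0.940 and 2.99), Col4a6, a basement membrane collagen gene (0.508 and 7.39), and Ido1. Ido1 had the widest gap of these, 1.03 in A and 111 in B at parturition (log2 ratio −5.78), with 69.6 in Null. Tph1 turned from higher to lower in A, at 20.6 and 42.8 (log2 ratio −1.02). Ly6d turned from lower to higher, at 38.2 and 17.5 (log2 ratio 1.09), as did the uncharacterised 3110079O15Rik.

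The chemokine genes that were far lower in A at day 6 were within 2-fold at parturition, while Igj and Ido1 were not. The log2 ratios there were 0.30 for Ccl5, −0.17 for Ccl22 and 0.53 for Cxcl13, and the T cell list had a median of −0.10. The cytotoxic list summed to 31.7 in A and 32.2 in B, while the B and plasma cell list, at much lower levels than at day 6, summed to 6.42 and 14.1. The muscle list, summed, was 2790 in A and 2665 in B. Of the other genes high in A at day 6, Csn3 had a log2 ratio of 0.75, Hepacam2 0.82 and Wfdc12 −0.44. Of the 5 milk protein genes below 1 FPKM at day 6, Csn2 was now 7706 in A and 2698 in B, and Csn1s2a 4152 and 345. Lalba (800.4 and 232) and Wap (201 and 13.1) were also above 1 in both, while Csn1s2b was 1.66 in A and 0.246 in B. The 8 milk protein genes compared at day 6 had a median ratio of 0.99 at parturition.

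**Figure D5:**
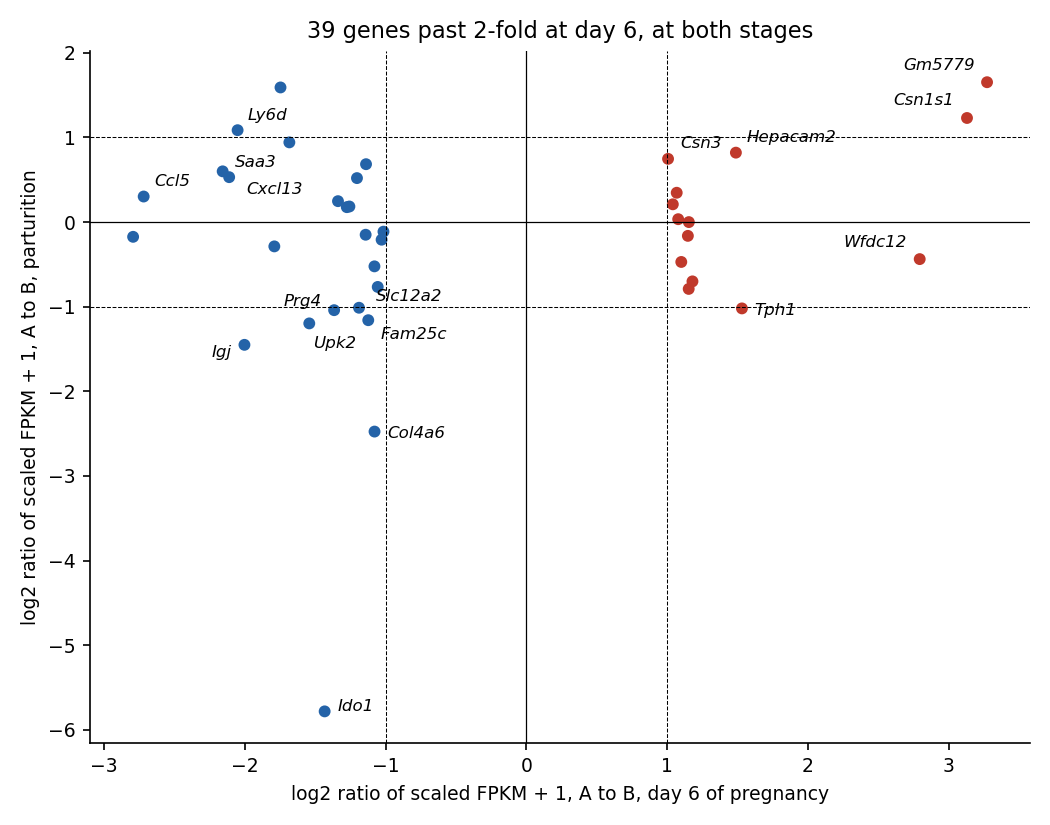
Log2 ratio of scaled FPKM + 1, A to B, at day 6 (x) and at parturition (y) for the 39 genes past 2-fold at day 6 that reached 1 FPKM at both stages; red and blue mark genes higher and lower in A at day 6, and dashed lines mark 2-fold. The points scatter on both sides of 0 at parturition, with Csn1s1 and Gm5779 high at both stages and Ido1 far below.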

How the data were processed

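The deposited values are FPKM per gene symbol, 1 column per genotype and stage. Per the submitters' processing notes, CASAVA, TopHat and build mm9 were used, with no versions. How FPKM was estimated, and on which annotation, is not given in the sources used here. In columns with 3 listed samples, 57.9% to 62.6% of values of 1 FPKM or more end in the recurring decimals 333 or 667, and 0.0961% to 0.173% do in columns with 2, so a column is taken as a mean over its samples. The labels' protocol names 2 mice per genotype although 3 samples are listed at day 6.

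Within a table, columns were divided by median-ratio factors over genes at 1 FPKM or more in all 6 columns (11733 at day 6, 10864 at parturition). The factors were 1.07 in both A and B at day 6. Ratios are log2 of scaled FPKM + 1, counted at 2-fold, for genes of 1 FPKM or more in A or B. The limma fit foreseen for a table with per-sample values was not used, because the tables hold means. No test was run. Genes named were Stat5a and Stat5b, the 15 highest and 15 lowest ratios with characterised names, those past 2-fold at both stages, the 10 most abundant, and members of the 32 lists past 2-fold or among the 6 farthest of a list. Other listed genes, the predicted genes and the single genes outside the lists were named after their values were seen. The genes and lists were chosen with earlier results of these data known. Promoters came from RefSeq, build GRCm38.p6, matched by symbol. Alternatives were a pseudocount of 0.1, 3 other scalings and 2 other filters. Python 3.11.15, numpy 2.4.6, pandas 2.3.3, scipy 1.17.1 and matplotlib 3.10.9 were used.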

Additional observations from a re-analysis of the deposited data

How the results depend on the processing

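No alternative reversed any of the 44 named genes past 2-fold at day 6. A pseudocount or a filter cannot change the sign of a ratio, and the A and B scaling factors were nearly equal. These alternatives could therefore hardly have reversed a gene. Alternatives were not run gene by gene for the other 15 of the 59. With a pseudocount of 0.1, the counts of genes higher and lower in A became 44 and 91 at day 6 and 92 and 122 at parturition, and with a floor of 5 FPKM the count lower at day 6 became 25. Without scaling, with scaling over A and B alone, with scaling to column sums and with no filter, each of these 4 counts stayed within 1.5 times its value. Of 44 named genes past 2-fold at day 6, 1 (Csn3, 1.00 with scaling to column sums) was under it in an alternative. No list median was past 2-fold, but those of T cells (−1.02) and skeletal muscle (1.07) were with a pseudocount of 0.1, and those of cytotoxic cells (−1.28) and skeletal muscle (1.07) with a floor of 5 FPKM. The medians of the neutrophil (0.23) and brown adipocyte (0.09) lists changed sign with that floor. No paired analysis was possible because the tables hold 1 mean column per genotype, and leaving out each replicate was not run for the same reason. Read depth is unknown, so the counting error of differences at low levels cannot be given.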

Other observations

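Genes that the liver is known to secrete or express appeared among the extremes and went both ways. The 9 such genes at 1 FPKM or more in A or B were chosen after their values were seen. Of these, 2 were at least 2-fold higher in A and 1 was lower, with a median log2 ratio of 0.80. Apoa1, Apoa2, Ahsg and Fabp1 passed that filter only through A, which favours ratios above 0. No direction is therefore drawn from the median. Apoa2, an apolipoprotein of high-density lipoprotein, was 2.48 in A and 0.270 in B, and Ahsg (fetuin-A) 1.34 and 0.124. Apoa1 (1.05 and 0.0632), Fabp1 (1.43 and 0.370) and Alb (16.9 and 9.28) were higher in value and within 2-fold on the scale of FPKM + 1. The fibrinogen genes were in the other direction, with Fgg at 5.42 in A and 19.6 in B and Fgb at 2.97 and 6.24. Apoa2 and Ahsg were also high in AB, at 4.42 and 1.38. At parturition both were under 1 FPKM in A and B.

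Predicted genes Gm5779 and Gm10136 varied between columns by more than the A to B ratio. Gm5779, the highest ratio of all, was 10.6 in A, 0.197 in B, 38.8 in BB, 0.0589 in AB, 20.1 in wild type and 6.19 in Null. Gm10136 was 36.7 in A, 17.4 in B, 55.5 in BB, 0.342 in AB, 0.670 in wild type and 0.606 in Null. A and B did not stand together against the other columns for Gm5779.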
